A study of Mus musculus with 5480 samples.

Results

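Basement membranes are thin sheets of matrix on which epithelium and endothelium sit and which wrap smooth muscle cells and pericytes. The genes described here are 10 of their components: Col4a1 and Col4a2, the chains of the most common type IV collagen, Col15a1 and Col18a1, collagens of the membrane's outer face, Lama2, Lama4, Lamb1 and Lamc1, chains of laminin trimers, and Nid1 and Nid2, the nidogens that join laminin to type IV collagen. They were listed by name, with earlier results of these data known, and are 10 of the 18072 genes in the count table, which held all of them. The data were read counts of 5480 single cells sorted from the distal lung of 10 mice and sequenced one by one in plates, 5409 from a sort for mesenchymal cells, 69 from one for CD31 and 2 from one for CD45. Each of 5 groups was 1 female and 1 male: embryonic day 18.5 (E18.5), postnatal days 1, 7 and 21 (P1, P7, P21), these 4 in normal air, and a hyperoxia group of P7. The labels gave no genotype, strain, oxygen level or length of exposure. They called every cell mesenchymal and gave each 1 of 16 subtype names. Since each group was 1 mouse of each sex, the spread between the mice of a group also holds any difference between the sexes, apart from the term for sex in the fits.

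In a basement membrane, laminin trimers bind receptors on the cell and form the first sheet, and a network of type IV collagen gives the sheet its strength. Laminin trimers that hold the Lama2 chain are known from muscle and nerve, and those that hold the Lama4 chain from blood vessels. Type XV and type XVIII collagen carry glycosaminoglycan chains, and the end of type XVIII collagen can be cut off as endostatin. Nidogens bind to a site on the laminin gamma 1 chain, the product of Lamc1.

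Levels are in CPM, the reads of a gene per 1000000 reads of a library, where a library is the summed reads of all cells of 1 subtype or class from 1 mouse. Libraries of fewer than 10 cells were left out, which left 64 libraries of 15 subtypes. Mice held 294154721 to 671766116 reads and cells 39358 to 5177020, and 0 pairs of cells had identical counts. In such sums, more cells with a gene and more of it in each cell cannot be told apart. Of the marker lists of the mesenchymal classes, those of the alveolar fibroblasts, adventitial fibroblasts, pericytes and vascular smooth muscle were highest in the subtype of that name. The myofibroblast list was highest in early airway smooth muscle, and the airway smooth muscle list in striated muscle. Endothelial cells also make many of these genes, and 8 endothelial markers summed to at most 148 CPM in any library; their part in the levels was not tested. In the alveolar class at E18.5 the libraries were small, of 14 cells in the female and 24 in the male, and the female one held 1031 CPM of epithelial and 198 CPM of immune markers against at most 119.7 and 56.7 CPM in the other alveolar libraries. The part of these cells in the results was not tested.

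Sequences before the start of the gene are shown for the pair with the most similar levels, for a pair that followed next, and for the member with the lowest median level. RefSeq's table for the mouse build GRCm38.p6 held windows of 300 bases (250 before the start and 50 after) for 7 of the 10 members, 8 windows in all. Col4a1 and Col4a2 start head to head on chromosome 8, Col4a1 at base 11312826 on the minus strand and Col4a2 at base 11312805 on the plus strand, so that the first 22 bases of both lie over each other. These 22 bases are in capitals in the stretch that holds both starts, chr8:11312801-11312830, read on the plus strand.
Col4a1 and Col4a2: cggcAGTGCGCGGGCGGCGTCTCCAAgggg
In the 250 bases before Lamb1 (chr12:31265043-31265292, plus strand), before Nid1 (chr13:13437352-13437601, plus strand) and before Col15a1 (chr4:47207762-47208011, plus strand), capitals mark the CG pairs.
Lamb1: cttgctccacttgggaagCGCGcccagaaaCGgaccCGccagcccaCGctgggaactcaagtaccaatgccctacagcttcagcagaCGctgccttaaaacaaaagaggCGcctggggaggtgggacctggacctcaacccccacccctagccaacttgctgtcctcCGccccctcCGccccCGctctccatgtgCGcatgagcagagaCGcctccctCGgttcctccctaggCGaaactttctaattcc
Nid1: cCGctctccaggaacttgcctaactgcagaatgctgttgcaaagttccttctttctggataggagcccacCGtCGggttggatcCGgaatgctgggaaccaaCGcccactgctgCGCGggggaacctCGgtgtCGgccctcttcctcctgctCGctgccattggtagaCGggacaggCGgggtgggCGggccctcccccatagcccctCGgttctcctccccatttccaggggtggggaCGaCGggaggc
Col15a1: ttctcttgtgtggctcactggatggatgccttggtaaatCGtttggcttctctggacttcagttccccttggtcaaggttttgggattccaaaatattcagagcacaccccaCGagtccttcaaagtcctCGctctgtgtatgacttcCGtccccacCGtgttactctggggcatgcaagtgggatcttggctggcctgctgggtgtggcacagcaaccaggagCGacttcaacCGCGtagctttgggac

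The windows of 300 bases differed in their CG pairs. Col4a1 held 37 and Col4a2 33, Nid1 20, Lamb1 18, and Col18a1 16 and 6 at its 2 starts, while Col15a1 held 8 and Lama2 1. The median of the 32851 windows in the table was 7. The letters GGGCGG, searched on both strands, were in 6 of the 8 windows and in 35.7% of all windows. The windows of Col4a1 and Col4a2 overlap, and the bases over which both starts lie hold GGGCGG. The same site thus counts in both, and the 8 windows are not separate. CCAAT was in 5 of the 8 and in 37.4% of all, and TATAAA was in 0 of the 8 and in 13.6% of all. GGGCGG holds a CG pair in its own letters. The windows of Col15a1 and of the downstream start of Col18a1 held none of the 3.

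Between genes, levels are compared per kilobase of the exons in the GENCODE vM21 annotation. The median over the 64 libraries was 58.9 CPM per kb for Col4a1, 54.5 for Nid1, 41.2 for Col4a2, 33.2 for Lamb1, 25.7 for Lamc1 and 20.2 for Lama4. It was 5.64 CPM per kb for Nid2, 5.47 for Lama2, 3.54 for Col18a1 and 0.339 for Col15a1. The type IV collagen chains, Nid1 and the laminin chains Lamb1, Lamc1 and Lama4 thus had the higher medians. The subtypes were named by the study from these same cells, so their levels are given as a description, with no test.

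**Figure D1:**
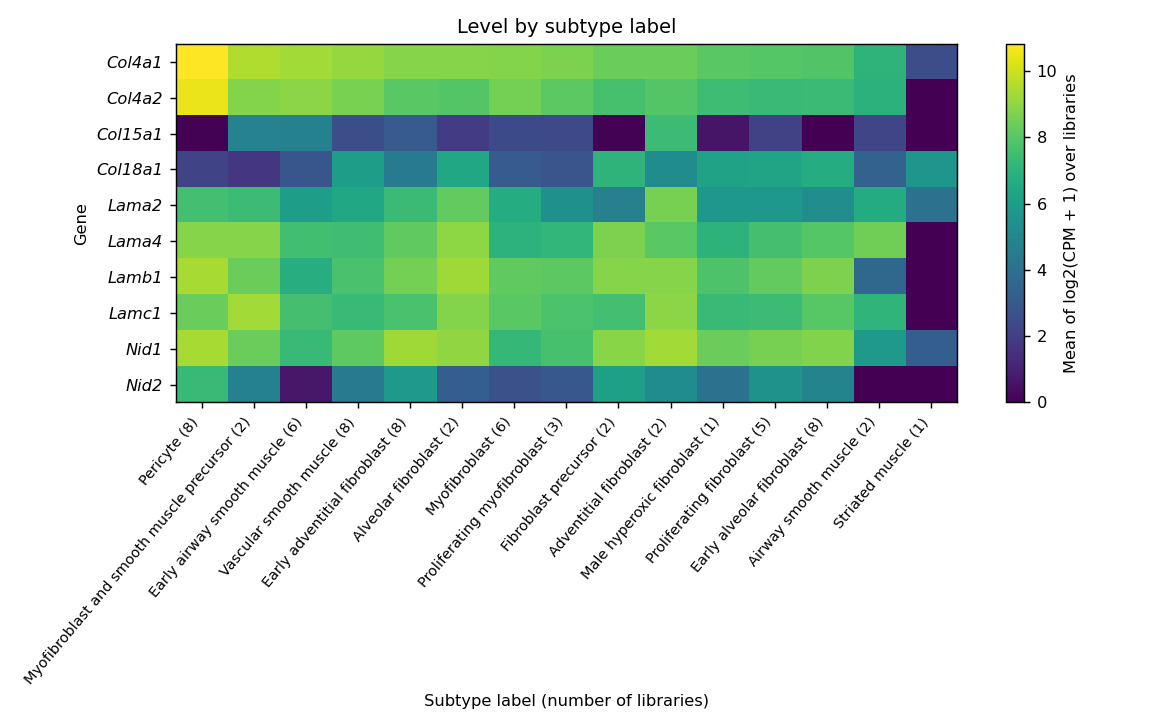
Colour gives the mean over libraries of log2(CPM + 1) for each member (rows) in each of 15 subtypes (columns, with the number of libraries), with subtypes ordered by Col4a1. Pericytes stand first for the type IV collagen chains, Col15a1 is bright in the adventitial fibroblasts of P21, and striated muscle is dark for most members.

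Pericytes, the cells that wrap capillaries, had the highest levels of the type IV collagen chains. In the 8 pericyte libraries Col4a1 was 1665 CPM in the E18.5 female and 1553 in the male, 1773 and 2009 in the P1 mice, 2374 and 1546 in the P7 mice, and 1967 and 1629 in the P21 mice. The highest of the 56 other libraries, vascular smooth muscle of the hyperoxia male, was at 871 CPM, below every pericyte library. Col4a2 in pericytes ran from 1050.5 to 2323 CPM, and again the highest other library, the same one, was lower, at 683 CPM. The lowest median of Col4a1 among subtypes with more than 1 library was that of the P21 airway smooth muscle, 134 CPM, and pericytes had a median 12.8 times that. In the order of medians, 8 of the 12 neighbouring pairs of subtypes overlapped in their libraries for Col4a1, and 10 of 12 for Col4a2. The single library of striated muscle, from the P21 female, held 5.04 CPM of Col4a1 and 0 reads of Col4a2.

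Col15a1 had its highest levels in the adventitial fibroblasts of P21, the fibroblasts around vessels and airways. Those of the P21 mice, female and male, had 218 and 133 CPM, and the highest of the 62 other libraries, early airway smooth muscle of the P1 male, had 47.8 CPM. The next highest median, 27.7 CPM, was that of the precursors of myofibroblasts and smooth muscle. In the E18.5 mice, female and male, these precursors held 97.6% and 96.9% of the reads of Col15a1. Adventitial fibroblasts held 97.7% and 93.5% in the P21 mice. In the normal-air mice of P1 and of P7, the subtype with the most reads differed between the female and the male. Of the 64 libraries, 11 had 0 reads of the gene. With every cell sampled down to 100000 reads, 66.2% of the 151 adventitial cells of the P21 female had a read (95% Wilson interval 58.4 to 73.3) and 66.7% of the 84 of the male (56.1 to 75.8), or 77.8% and 77.6% without thinning. The same count in P21 pericytes, at the same depth, was 0 of 69 and 0 of 72, which allows shares of up to 4.35% and 4.17%, and without thinning 1.43% and 2.67%. Thinning had left out 2 and 1 adventitial cells and 1 and 3 pericytes. Early adventitial fibroblasts had a read in 3.85% of the thinned cells of the E18.5 female and in 0 of 29 of the male, which allows up to 10.3%. The shares were 6.72% and 4.84% at P1 and 22.4% and 17.0% at P7, so they were lower than in the P21 mice at every earlier age. Intervals and limits here cover counting error only, since reads copied from 1 molecule are not independent.

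Col18a1 had another order. Its highest median was that of the fibroblast precursors of E18.5, with 123 to 135 CPM in their 2 libraries, and early alveolar fibroblasts came next, with a median of 100.1 CPM. Pericytes had a median of 6.31 CPM and early airway smooth muscle 10.4 CPM. Single libraries of vascular smooth muscle were as high as the precursors, up to 158 CPM, and for this gene all 12 neighbouring pairs in the order overlapped.

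The laminin alpha chains had different orders. Lama2 had its highest median in the adventitial fibroblasts of P21 (339 to 435 CPM), then in the alveolar fibroblasts of P21 (median 301 CPM) and in pericytes (median 252 CPM). Of the 62 other libraries 1, pericytes of the P1 female at 399 CPM, lay above the lower adventitial one. In the order of its medians, 10 of the 12 neighbouring pairs overlapped. Fibroblast precursors had a median of 25.2 CPM. Lama4 had its highest median in the alveolar fibroblasts of P21 (388 to 637 CPM), followed by pericytes (median 463 CPM), but 16 of the 62 other libraries lay above the lower alveolar one, so no subtype stood clear. Lamb1 had its highest median in pericytes, 668 CPM, with overlap: early alveolar fibroblasts of the E18.5 male were at 1089 CPM, and 14 of the 56 other libraries lay above the lowest pericyte library. Its lowest median was in the airway smooth muscle of P21, with 19.9 CPM in the female and 5.95 in the male. The single striated muscle library had 0 reads of Lama4, Lamb1 and Lamc1. Lamc1, the laminin gamma 1 chain, had its highest median, 631 CPM, in the precursors of myofibroblasts and smooth muscle. Among subtypes with more than 1 library this was 4.48 times the lowest. The same ratio was 4.3 for Lama4, 15.4 for Lama2 and 51.8 for Lamb1.

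The nidogens differed in range. Nid1 was at 371 to 1000.5 CPM in pericytes and 27 of the 56 other libraries lay above the lowest of these. Nid2 was at 37.2 to 305 CPM in pericytes, with a median of 198 CPM, and 18 of the 56 other libraries lay above the lowest of these. Nid2 was at 0 reads in 7 of the 64 libraries. In airway smooth muscle it was at or near 0: P1 had 0 reads in both mice, P7 had 5.78 CPM in the female and 0.032 in the male, and P21 had 0 reads in both, which allows up to 0.0293 CPM over both mice.

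Across the 64 libraries, the gene most like Col4a1 on log2(CPM + 1), among the 9441 genes with a mean of at least 10 CPM, was Col4a2 (Pearson r 0.931). The reverse also held. Nid1 was the most like Lamb1 (0.826), Lamb1 the most like Nid1, and Nid1 the most like Nid2 (0.775). Without the striated muscle library these were 0.883, 0.738 and 0.790. Lamc1 had Sec11a as its most like gene at 0.782, and this was 0.234 without that library, so it rested on it. Outside the members, Lama4 was most like Sparcl1 (0.876, and 0.774 without that library), Col18a1 most like Limch1 (0.813), Lama2 most like Tpst1 (0.739) and Col15a1 most like Ntn1 (0.724). Libraries of a mouse share that mouse and most of its sequencing run, so these are descriptions.

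Comparisons across age and hyperoxia used classes that join the early and later names of alveolar, adventitial and airway muscle cells, with myofibroblasts, vascular smooth muscle and pericytes as the others. In the joined classes the subtype name changes with age. The summed reads of a class in a mouse were tested with edgeR's quasi-likelihood test over all genes, with terms for group and sex, and p-values were adjusted by Benjamini-Hochberg within a class and comparison, with a threshold of 0.05. Fold changes from these fits are on TMM-normalized reads, so they can differ from the ratio of levels in CPM. Where 2 mice of a group are said not to overlap with 2 of another in a class, this is a description. An exact permutation test over such mice cannot go below 0.333, and the share of all genes without overlap in a single class is not given. Nearly all cells of the 4 normal-air males were sequenced in 1 run, those of the females at E18.5 and P1 in another, and those of the other 4 mice each in a further run, so that hyperoxia and sequencing run cannot be told apart.

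**Figure D2:**
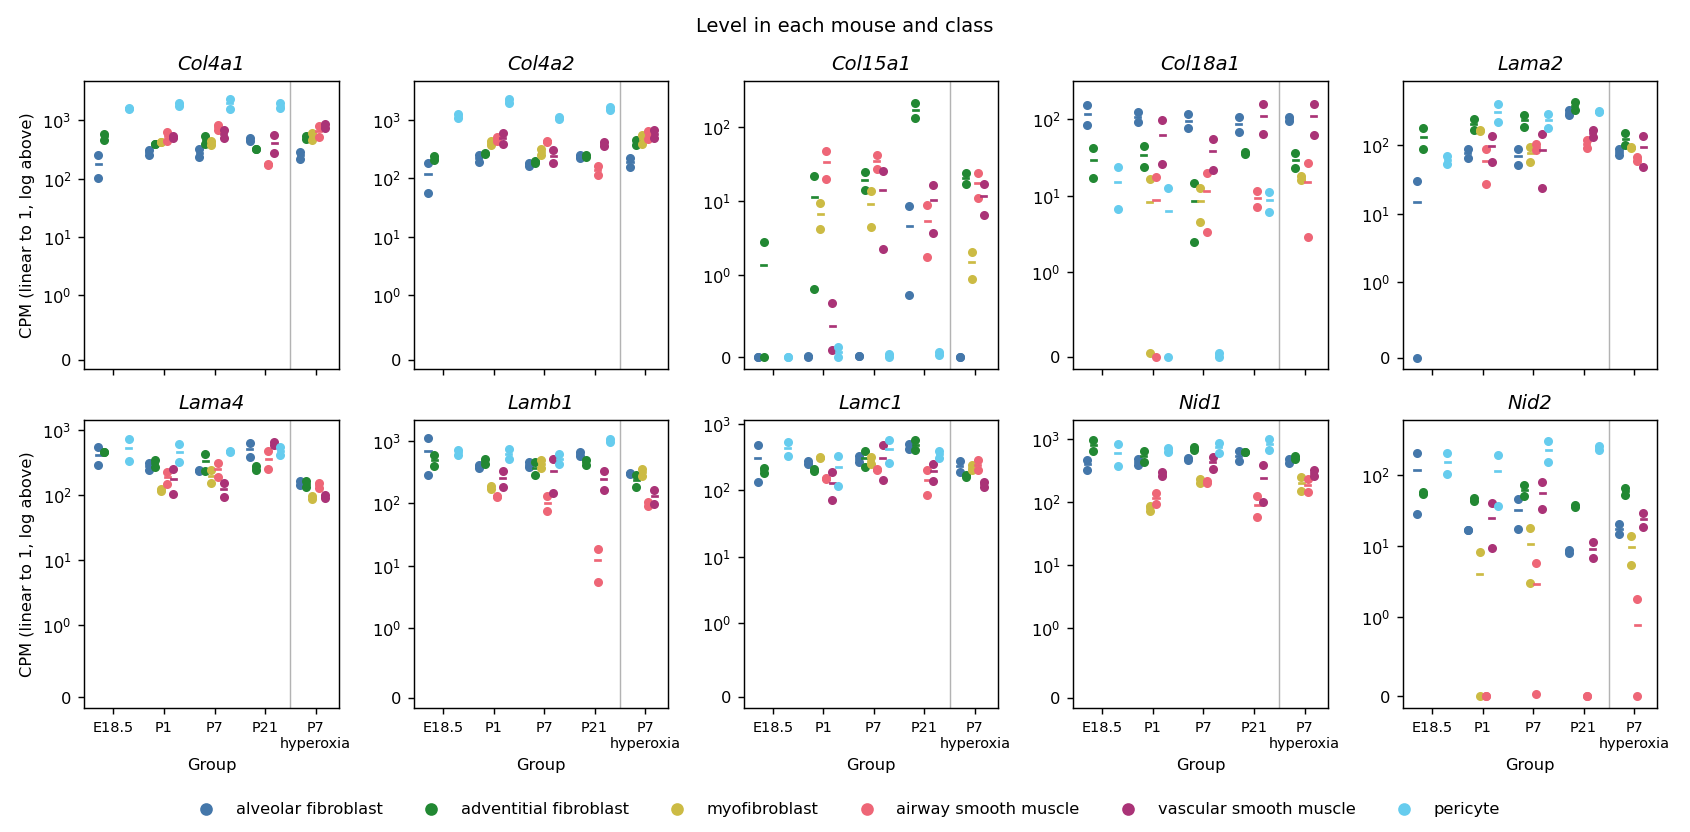
Each point is the level of a member in 1 mouse and class, in CPM on an axis that is linear up to 1 and logarithmic above, by group, and short bars are means of the 2 mice. Pericytes, shown in the 4 normal-air groups, lie above the other classes there for Col4a1 and Col4a2, Lamb1 in airway smooth muscle is lowest at P21, and Col15a1 in adventitial fibroblasts is highest at P21.

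From E18.5 to P1, 0 of the 29 member-and-class pairs tested in alveolar and adventitial fibroblasts and pericytes passed the threshold in edgeR, where 2.33% of all gene-and-class pairs did. Unadjusted p was under 0.05 for 3 pairs (10.3%), against 12.5% of all pairs. DESeq2 called 2 pairs, against 13.2% of all. Lama2 in pericytes was 68.6 and 53.0 CPM at E18.5 and 399 and 216 at P1, with no overlap (log2 fold change 2.28, SE 0.635, edgeR adjusted p 0.562). Col4a2 in pericytes was 1270.4 and 1067 CPM against 1927 and 2323, again with no overlap (0.85, SE 0.410, edgeR adjusted p 0.845). Nid2 was 208 CPM in the small female alveolar library at E18.5, 28.7 in the male, and 16.9 and 17.2 at P1.
In the alveolar class the calls turned on the small libraries of E18.5, and the median log2 fold change over all genes there was 1.35, against -0.05 for the 10 members. Without the E18.5 female, Lamb1 passed (log2 fold change -1.63, adjusted p 0.0165 by edgeR), and without the E18.5 male, Col4a2 (2.16, adjusted p 0.0199), Nid2 (-3.23, adjusted p 0.0203) and Lama2 passed, each with 1 mouse assumed to vary as the other groups did. Lama2 had 0 reads in the E18.5 female.

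From P1 to P7, 0 of the 59 pairs in 6 classes passed the threshold in edgeR, and 0.0% of all gene-and-class pairs did. Unadjusted p was under 0.05 for 5 pairs (8.47%), against 4.8% of all pairs, and DESeq2 called 2, against 3.24%. Both of those were in myofibroblasts, cells that lay down elastin during the formation of alveoli. There Lamb1 was 191 and 168 CPM at P1 and 367 and 484 at P7 (log2 fold change 1.20, SE 0.321, edgeR adjusted p 0.575), and Nid1 was 85.2 and 71.5 against 199.6 and 230 (1.39, SE 0.352, edgeR adjusted p 0.533). The groups of mice did not overlap for either gene. Without the P1 male, Col18a1 in myofibroblasts passed in edgeR (adjusted p 0.018), where the other P1 mouse had 0.0446 CPM.
Col4a2 was lower in both P7 mice than in both P1 mice in all 6 classes, and such a pattern in at least 5 of 6 classes was found for 0.781% of the genes tested in all of them. In pericytes it was 1927 and 2323 CPM at P1 and 1114 and 1050.5 at P7 (log2 fold change -0.96, SE 0.411, edgeR adjusted p 1). In airway smooth muscle it was 443 and 518 against 425 and 435, where the groups almost touch. None of the 6 passed the threshold in edgeR, and a single limma-voom fit over all classes called Col4a2 in pericytes (adjusted p 0.00574). Immune markers in the pericyte libraries summed to 13.1 and 0.252 CPM at P1, 127 and 89.7 at P7 and 22.5 and 6.76 at P21, so P7 overlapped with neither, and their part in the pericyte results of these steps was not tested.

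From P7 to P21, 0 of the 49 pairs in 5 classes passed the threshold in edgeR, where 0.289% of all gene-and-class pairs did. Unadjusted p was under 0.05 for 12 pairs (24.5%), 9 of them with higher and 3 with lower levels at P21, against 8.06% of all pairs. DESeq2 called 8 pairs, against 6.82% of all. All 3 lower pairs were in airway smooth muscle, the muscle around bronchi and bronchioles, and the higher ones were in the other 4 classes.
In airway smooth muscle Col4a1 was 822 CPM in the female and 693 in the male at P7, and 181 and 171 at P21 (log2 fold change -1.75, SE 0.369, edgeR adjusted p 0.0669). Lamb1 was 130 and 74.0 CPM at P7, and 18.8 and 5.53 at P21 (-2.80, SE 0.605, edgeR adjusted p 0.0737). Col4a2 was 425 and 435 CPM at P7, and 159 and 114 at P21 (-1.29, SE 0.364, edgeR adjusted p 0.211). The groups did not overlap for these genes, and DESeq2 called all 3 (adjusted p 0.000662, 0.000282 and 0.0267). Without the P21 female, Lamb1 passed in edgeR as well (-3.68, adjusted p 0.0374). Lama2 and Lama4, the alpha chains, did not share this: Lama2 was 85.6 and 103 CPM at P7 and 90.9 and 119.6 at P21, and Lama4 191 and 311 against 463 and 245, both with overlap. Nid2 had 596 reads at P7 and 0 at P21, which is at least 123-fold lower counted against 3 reads over both P21 mice, and nearly all of those P7 reads came from the female.

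In pericytes 7 of the 9 members tested had a positive log2 fold change at P21, in adventitial fibroblasts 6 of 10, and in vascular smooth muscle 4 of 10. The medians were 0.23, 0.5 and -0.3, against 0.2, 0.1 and -0.09 over all genes tested in these classes, so pericyte members were near all genes. In alveolar fibroblasts, which lie in the walls of the air spaces, 9 of the 10 members had a positive log2 fold change, with a median of 0.88 against -0.04 over all genes tested in that class. Lama2 there was 52.1 and 87.3 CPM at P7 and 273 and 325 at P21 (log2 fold change 2.46, SE 1.509, edgeR adjusted p 0.778). The groups were well apart, and Lama2 passed in edgeR without either of the small E18.5 libraries (2.41, adjusted p 0.0434 without the female and 0.0424 without the male) and with only the 4 mice compared (adjusted p 0.033). Lama4 in alveolar fibroblasts was 238 and 236 CPM against 387 and 626 (1.42, SE 0.444, edgeR adjusted p 0.569), and Col4a1 319 and 235 against 438 and 494 (1.10, SE 0.445, edgeR adjusted p 0.683). Neither overlapped. A single limma-voom fit over all classes called Lama2, Lama4 and Col4a1 there, and also Col4a2, Lamb1, Lamc1 and Col15a1.
Lama4 had its largest fold change in vascular smooth muscle, the muscle of vessel walls: 90.9 and 153 CPM at P7 and 578 and 658 at P21 (log2 fold change 2.54, SE 0.582, edgeR adjusted p 0.273). DESeq2 called it (adjusted p 0.000915), and so did edgeR with only the 4 mice compared (adjusted p 0.0481). In adventitial fibroblasts Col15a1 was 24.8 and 14.0 CPM at P7 and 209.7 and 133 at P21 (3.40, SE 1.265, edgeR adjusted p 0.428), and Col18a1 2.44 and 14.5 against 37.6 and 35.2 (2.69, SE 0.779, edgeR adjusted p 0.318). DESeq2 called both. Col15a1 was also higher in the alveolar fibroblasts of P21, though at a low level: 0.00881 and 0.0072 CPM at P7 (3 reads in all) and 0.759 in the P21 female and 8.44 in the male. The male held 512 of the 627 reads of P21. In pericytes Lamb1 was 420 and 615 CPM at P7 and 1076 and 952 at P21 (1.03, SE 0.468, edgeR adjusted p 0.955), again with no overlap, and the immune markers given above were higher in the P7 libraries. Col18a1 in pericytes had 201 reads at P1, all in the male, 1 read at P7 and 993 at P21, where both mice had it (6.05 and 11.2 CPM). The ratio of P21 to P7 was 410 with a counting interval of 73.4 to 16209.

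Between P7 and P21, Col4a2 was higher in both P21 mice in every class but airway smooth muscle, where both were lower. The pattern of higher levels in at least 4 of 5 classes was found for 2.79% of the genes tested in all of them. Nid2 was lower in both P21 mice in every class but pericytes, a pattern that 6.82% had. In airway smooth muscle this rests on a P7 male at 0.032 CPM, where 0 reads at P21 allow up to 0.0293 CPM. Without that class Nid2 would not reach the pattern of at least 4 of 5 classes. Nid2 in vascular smooth muscle, for example, was 80.6 and 33.6 CPM at P7 and 11.4 and 6.87 at P21 (log2 fold change -2.50, SE 1.627, edgeR adjusted p 0.784). In pericytes, where Nid2 was highest, it was 305 and 157 against 225 and 259, with overlap. Neither gene passed the threshold in any class in edgeR. DESeq2 called Col4a2 in airway smooth muscle. The limma-voom fit over all classes called it there and in alveolar fibroblasts and pericytes.

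Whether the step from P7 to P21 differed between classes was tested directly, against alveolar fibroblasts and with the mouse as a block. Of 40 member-and-class pairs 1 passed: Col4a1 in airway smooth muscle, whose change was lower than in alveolar fibroblasts by 2.83 on the log2 scale (SE 0.480, edgeR adjusted p 0.0449). In that class 0.115% of genes passed, and over all 4 classes 0.0848% of gene-and-class pairs. Col4a1 was lower at P21 in both airway muscle libraries and higher in both alveolar ones, as given above. The call was lost without any 1 of the 4 mice (adjusted p 0.158 without the P21 female, 0.424 without the P7 female, 0.525 without the P21 male and 0.658 without the P7 male), while the difference was -3.09 to -2.67. Under the other settings tried the adjusted p was 0.000161 to 0.0445. Unadjusted p was under 0.05 for 15 of the 40 pairs (37.5%), 14 of them below alveolar fibroblasts, against 5.62% of all pairs. DESeq2 called 8, against 3.43%. Col15a1 was among the 15 in all 4 classes, and alveolar fibroblasts had 3 reads of it at P7 and 627 at P21. In adventitial fibroblasts Col15a1 was also higher at P21, so below means a smaller rise there. The DESeq2 calls hold Col15a1 in airway smooth muscle, vascular smooth muscle and pericytes. They also hold Nid2 in airway smooth muscle, with 0 reads at P21, and Col18a1 in pericytes, with 1 read at P7. Both counts thus rest in part on groups near 0. All 10 members had a negative difference in airway smooth muscle, with a median of -2.02 against 0.02 over all genes. The 4 classes are compared with the same alveolar libraries, so their differences share these values.

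The ratio of Col4a2 to Col4a1, the chains of 1 trimer in which Col4a1 chains outnumber Col4a2 chains, was followed by group, per kilobase. Over all cells of the 6 classes the E18.5 female had 0.691 and the male 0.782, the P1 mice 0.967 and 0.926, the P7 mice in normal air 0.634 and 0.680, the hyperoxia mice 0.877 and 0.922, and the P21 mice 0.859 and 0.902. Both normal-air mice of P7 were below the 6 mice of P1, P21 and hyperoxia. At E18.5 the 6 classes leave out the fibroblast precursors, which were most of the cells, and over all cells of every subtype the E18.5 mice had 461 and 448 CPM of Col4a1 and 296 and 257 of Col4a2, against 525 and 457 and against 296 and 284 at P7. In adventitial fibroblasts the ratio at E18.5 was 0.504 and 0.463, within the range of the P7 mice of that class, 0.529 and 0.428. By class and sex, the ratio was higher at P1 than at P7 in 12 of 12 pairs, higher at P21 than at P7 in 8 of 10, and higher in hyperoxia than in normal air at P7 in 10 of 10. The exceptions at P21 were the alveolar fibroblasts of both sexes. In the same comparisons, the share of Lama2 in Lama2 plus Lama4 was higher in 8 of 12, 7 of 10 and 8 of 10. The share of Nid2 in the nidogens was higher in 4 of 12, 1 of 10 and 5 of 10, and Lamb1 over Lamc1 in 8 of 12, 5 of 10 and 4 of 10. The ratio of Col4a2 to Col4a1 was not planned and was picked out of these. How often other gene pairs have such counts is not given.
In vascular smooth muscle the ratio of Col4a2 to Col4a1 was 0.502 and 0.416 at P7 in normal air and 0.746 and 0.884 in hyperoxia. In adventitial fibroblasts it was 0.529 and 0.428 against 0.899 and 0.953. The groups did not overlap in either class. With each cell given the same weight, the pairs were 9 of 12, 9 of 10 and 10 of 10. With 2 mice against 2, an exact permutation test over mice cannot go below 0.333, and no model of the ratio was fitted over all mice, so it is given as a description. Pairs of 1 mouse are not independent. The males of E18.5, P1, P7 and P21 in normal air shared a run, and over the 6 classes the ratio of the P7 male was below those of the P1 and P21 males. This is 1 male per age, and the hyperoxia mice were in other runs. The part of the run in the ratio was not tested.

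**Figure D3:**
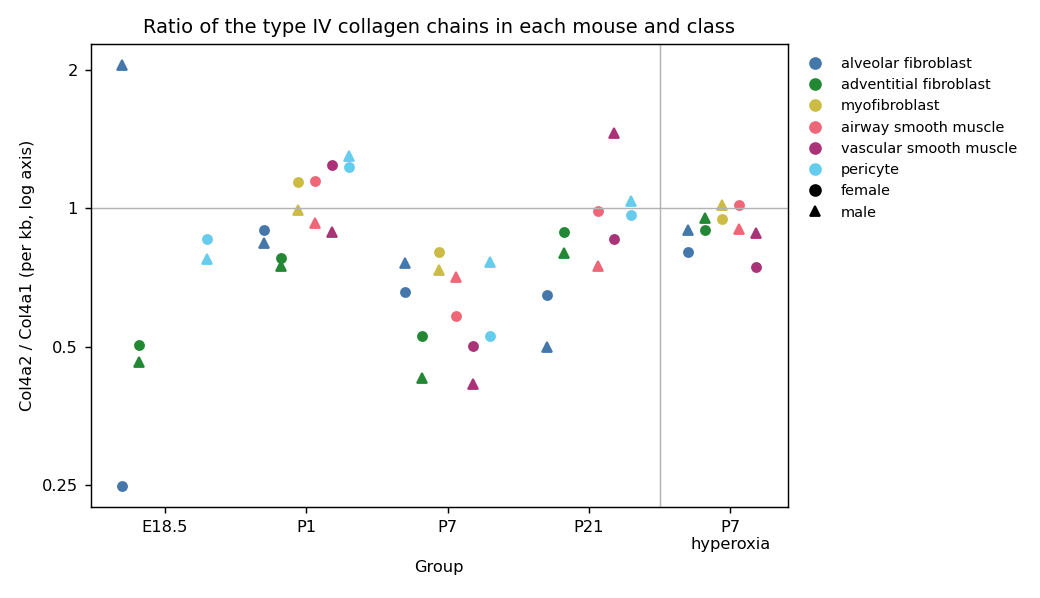
Each point is the ratio of Col4a2 to Col4a1, per kilobase and on a logarithmic axis, in 1 mouse and class, circles for females and triangles for males, by group. The points of P7 in normal air run from 0.416 to 0.804 and those of P7 in hyperoxia from 0.746 to 1.02, and the small alveolar libraries of E18.5 lie far apart.

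Under hyperoxia at P7, 0 of the 50 pairs in 5 classes passed the threshold in edgeR, and 0.0% of all gene-and-class pairs did. Unadjusted p was under 0.05 for 7 pairs (14.0%), 2 higher and 5 lower in hyperoxia, against 4.59% of all pairs. DESeq2 called 1 pair, against 1.99% of all. Of the 50 pairs 70.0% had a negative log2 fold change, against 49.1% of all gene-and-class pairs. Pericytes were not compared, with 5 and 3 cells in the hyperoxia mice.
Lama4, the vascular laminin alpha chain, was lower in hyperoxia in most classes. In adventitial fibroblasts it was 231 and 424 CPM in normal air and 162 and 131 in hyperoxia (log2 fold change -1.29, SE 0.350, edgeR adjusted p 0.621, DESeq2 adjusted p 0.0443). In myofibroblasts it was 151 and 238 against 94.8 and 86.8 (-1.11, SE 0.352, edgeR adjusted p 0.694). In alveolar fibroblasts it was 238 and 236 against 140 and 165 (-0.78, SE 0.436, edgeR adjusted p 1). Airway smooth muscle, with 191 and 311 against 153 and 129, did not overlap either, and vascular smooth muscle, with 90.9 and 153 against 97.6 and 89.8, did. Both hyperoxia mice were thus below both normal-air mice in 4 of 5 classes, a pattern of at least 4 classes that 3.27% of the genes tested in all of them had.
Col4a2 had the opposite pattern, higher in both hyperoxia mice in every class but alveolar fibroblasts, which 6.27% of genes had in at least 4 of 5 classes. In adventitial fibroblasts it was 183 and 201 CPM in normal air and 377 and 452 in hyperoxia (log2 fold change 0.93, SE 0.291, edgeR adjusted p 0.621). In vascular smooth muscle it was 301 and 182 against 486 and 683 (1.10, SE 0.523, edgeR adjusted p 1). Endothelial markers in these libraries summed to 7.25 and 24.2 CPM in normal air and to 30.8 and 101.0 in hyperoxia, also with no overlap, and their part in the vascular muscle results was not tested. In alveolar fibroblasts it was 186 and 159 against 155 and 224, with overlap. Col4a1 did not share this in adventitial fibroblasts, where it was 390.3 and 530.1 against 473 and 535. It was higher in both hyperoxia mice in 2 of 5 classes. These were myofibroblasts (377 to 441 CPM against 458 to 599.8) and vascular smooth muscle (493 to 677 against 734 to 871).

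**Figure D4:**
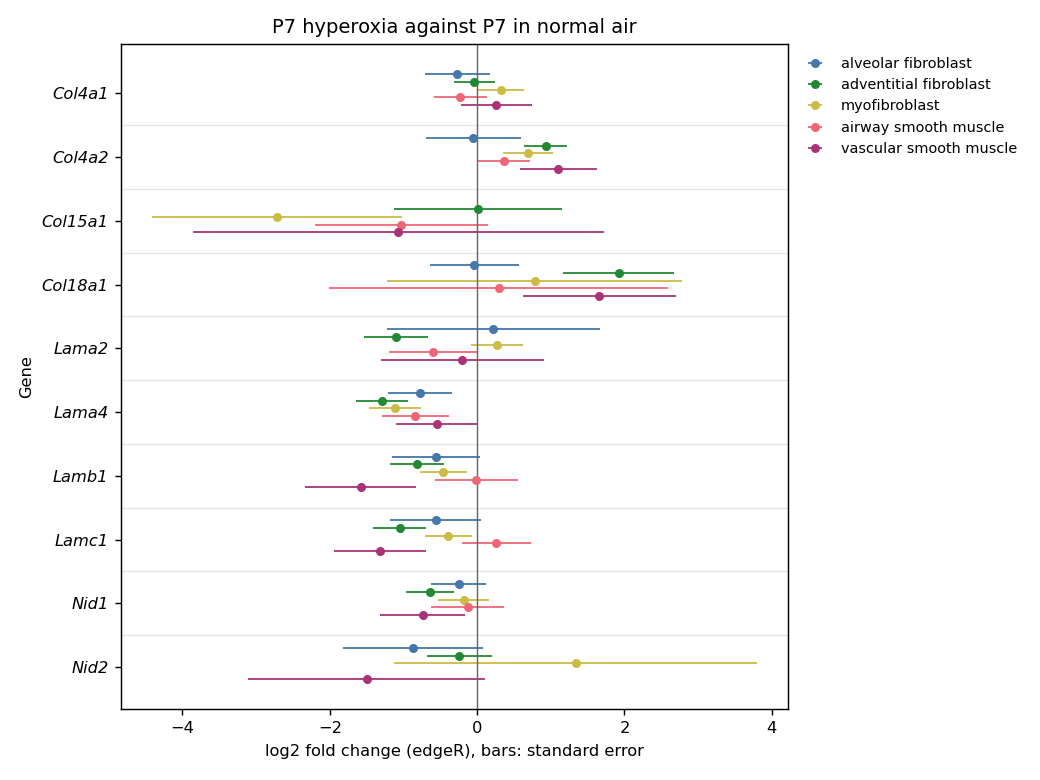
Points are edgeR log2 fold changes of P7 in hyperoxia against P7 in normal air for each member and class, with bars of 1 standard error. Lama4 lies left of 0 in all 5 classes and Col4a2 right of 0 in 4, 2 pairs with under 5 CPM in both groups are left out, and no point passed the threshold.

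Adventitial fibroblasts held 6 of the 7 pairs with an unadjusted p under 0.05 under hyperoxia, and also 1224 of the 3228 such pairs of all genes, out of 15289 genes tested in this class. Besides Lama4 and Col4a2 these were Lamc1, with 387 and 223 CPM in normal air and 171 and 159 in hyperoxia (log2 fold change -1.05, SE 0.362, edgeR adjusted p 0.621), Lama2 with 184 and 278 against 149 and 101, Lamb1 with 287 and 458 against 281 and 185, and Col18a1 with 2.44 and 14.5 against 23.0 and 36.0. Markers of mesothelial cells, which cover the lung surface and could be in this class, summed to 575 and 654 CPM in hyperoxia and to 208 and 0.0648 in normal air. Without the cells in which 4 such markers reached 100 CPM (7 and 9 cells in hyperoxia, 1 and 0 in normal air), Lama4 was 224 and 424 CPM in normal air and 172 and 138 in hyperoxia, and Col4a2 189 and 201 against 383 and 466. Apart from these values, the part of mesothelial cells in the adventitial results was not tested. Endothelial markers in this class summed to 59.5 and 21.5 CPM in normal air and to 67.4 and 148 in hyperoxia, with no overlap. The part of endothelial cells in the adventitial results was not tested.
The test of whether the hyperoxia effect of a class differed from that of alveolar fibroblasts called 0 of 40 member pairs in edgeR, where 0.0828% of all pairs passed. Unadjusted p was under 0.05 for 3 of them (7.5%), against 5.34% of all, and all 3 were Col4a2, in adventitial fibroblasts, myofibroblasts and vascular smooth muscle. DESeq2 called 1, Col4a2 in vascular smooth muscle (1.07 on the log2 scale, adjusted p 0.0182), against 2.45% of all. edgeR called the same pair without the normal-air female of P7 (1.39, adjusted p 0.0482).

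Genes of the same pathway were followed as 4 lists, chosen by what they are known to do. Of 11 other collagen IV and laminin chains, Lamb2, the laminin beta 2 chain, had the highest level per length, with class means of 5.45 to 48.8 CPM per kb, and none passed the threshold in a step of age or hyperoxia. Col4a5, a chain of another type IV collagen, differed in its hyperoxia effect between vascular smooth muscle and alveolar fibroblasts (edgeR adjusted p 0.0389). In that test 1 of 44 pairs of this list passed, against 0.0828% of all gene-and-class pairs. In vascular smooth muscle Col4a5 had 3 reads in normal air at P7, all in the male, and 761 in hyperoxia (25.3 and 27.7 CPM). The ratio was 478 with a counting interval of 163 to 2322. The endothelial markers given above, higher in the hyperoxia libraries of this class, are beside this result too, and their part was not tested. It had been 24.3 ± 24.0 CPM (SD, n = 2) at P1 and was 78.1 ± 3.58 CPM (SD, n = 2) at P21, so the normal-air mice of P7 had the lowest levels.
Among 16 linkers and associated proteins, Sparc, a collagen-binding glycoprotein, was highest, with class means of 852 to 6316 CPM per kb. From E18.5 to P1, 2 of 47 gene-and-class pairs of this list passed, against 2.33% of all pairs. Both were higher at P1 and both were in alveolar fibroblasts. In that class 6.16% of all genes passed, and the median log2 fold change of all genes was 1.35. Hmcn1, the matrix protein hemicentin 1, rose from 2.88 and 10.1 CPM to 242 and 186 (log2 fold change 5.05, SE 0.728, edgeR adjusted p 0.0284). Hspg2, which encodes perlecan, had 0 reads at E18.5 and 31.4 and 22.7 CPM at P1, at least 144-fold higher (edgeR adjusted p 0.0291). From P7 to P21, 3 of 78 pairs passed, all lower at P21, against 0.289% of all gene-and-class pairs. By class, 1.13% of all genes passed in airway smooth muscle and 0.0886% in vascular smooth muscle. In airway smooth muscle Hmcn1 fell from 1078 and 932 CPM to 188 and 202 (log2 fold change -2.01, SE 0.323, edgeR adjusted p 0.0207) and Frem2, a protein of epithelial basement membranes, from 57.5 and 82.0 to 0.111 and 0.538 (-7.69, SE 0.896, edgeR adjusted p 0.00643). Fbln2, which encodes fibulin 2, fell in vascular smooth muscle from 46.2 and 279 CPM to 0 reads (at least 2323-fold lower, edgeR adjusted p 0.0441).
Of 12 receptors, Itgb1, the integrin beta 1 chain, was highest (65.9 to 355 CPM per kb), and Itga1, a collagen receptor chain, fell from E18.5 to P1 in alveolar fibroblasts, from 407 and 315 CPM to 88.9 and 58.2 (log2 fold change -2.33, SE 0.544, edgeR adjusted p 0.0473). Of 10 genes of collagen folding and export, P4hb was highest (221 to 535 CPM per kb), and P4ha2, a prolyl hydroxylase chain, rose over the same step in the same class, from 0 reads to 11.2 and 6.62 CPM, at least 46.1-fold (edgeR adjusted p 0.0469). These were 1 of 33 receptor pairs and 1 of 30 pairs of the folding and export genes over this step, against 2.33% of all pairs. In alveolar fibroblasts 6.16% of all genes passed. All the E18.5 values rest on the 2 small alveolar libraries. From P1 to P7 and under hyperoxia no gene of the 4 lists passed within a class, as no gene of the whole table did in edgeR.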

How the data were processed

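Reads per gene and cell were deposited as whole-number counts. Per the submitters' processing notes, STAR 2.5.2b and HTSeq 0.10 were used, and the build named there is GRCh38, a human build, although the samples are labelled as mouse. Per the labels, libraries were made in plates with Tn5. No molecular identifiers are named, so copies of 1 molecule count more than once, and deep cells weigh more in a sum. Each library is the sum of the counts of all cells that a mouse has in a class, with at least 10 cells. In R 4.3.3, edgeR 4.0.16 (TMM, filterByExpr, quasi-likelihood, two-sided) was fitted to all genes and all mice of a class, with terms for group and sex, and tested on simulated data. Differences between classes had the mouse as a block. Alternatives used DESeq2 1.42.0 and limma 3.58.1. Likeness was Pearson's r on log2(CPM + 1). The members and lists were chosen with earlier results of these data known. The text names all 10 members, genes of the lists that passed the threshold (at most 5 per comparison), and the highest by level.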

Additional observations from a re-analysis of the deposited data

Results flagged for a closer look

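The change of Col4a1 from P7 to P21 differed between airway smooth muscle and alveolar fibroblasts in the test of the difference itself (log2 difference -2.83, SE 0.480, edgeR adjusted p 0.0449). Leaving out any 1 of the 4 mice took the adjusted p to between 0.158 and 0.658. The hyperoxia effect on Col4a5 at P7 differed between vascular smooth muscle and alveolar fibroblasts in the same kind of test (edgeR adjusted p 0.0389), with 3 reads in the normal-air mice of that class. Groups of 2 mice were too small to look for a mouse that stands apart from its group.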

How the results depend on the processing

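Counts are of member-and-class pairs that passed. From E18.5 to P1 there were 0, with 2 by DESeq2, 1 with at least 20 cells per library, 1 by limma-voom over all classes, and 0 to 3 without 1 mouse (1 without the E18.5 female, 3 without the E18.5 male). From P1 to P7 there were 0, with 2 by DESeq2, 1 by limma-voom and 0 to 1 without 1 mouse (1 without the P1 male). From P7 to P21 there were 0, with 2 without a filter on low counts, 8 by DESeq2, 1 with at least 20 cells, 2 by limma on the mean CPM per cell, 2 with only the mice compared, 12 by limma-voom and 0 to 1 without 1 mouse (1 without the E18.5 female, the E18.5 male or the P21 female). Under hyperoxia there were 0, with 1 by DESeq2 and 2 by limma-voom. For the difference from alveolar fibroblasts under hyperoxia there were 0, with 1 by DESeq2 and 0 to 1 without 1 mouse (1 without the normal-air P7 female). For that difference from P7 to P21 there was 1, with 8 by DESeq2, 2 by limma on the mean CPM per cell, and 0 without any 1 of the 4 mice. The difference of Col15a1 in adventitial fibroblasts from P7 to P21 was -5.35, and 0.92 by limma on the mean CPM per cell. The causes of these shifts were not tested. Sex was shared between groups but animals were not. Without the term for sex, that is with no replicate block, the 4 steps had 0 calls, and without the mouse as a block the differences had 1 call (P7 to P21) and 0 (hyperoxia). With 2 mice per group, values that missed the threshold are not shown to be equal.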
